A study of Mus musculus with 9 samples.

Results

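Zscan4 (zinc finger and SCAN domain containing 4) is a family of near-identical genes that lie side by side on mouse chromosome 7. The genes are switched on in the embryo at the 2-cell stage, when the zygotic genome is first transcribed, and are otherwise nearly silent. In cultures of mouse embryonic stem cells (ESCs) only a small part of the cells express them at any one time, in passing bursts that accompany the 2-cell-like state. The proteins carry a SCAN domain, through which such factors pair, and a set of zinc fingers that bind DNA, and the family is known for its role in telomere lengthening and genome stability of ESCs.

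All rows of the deposited expression table named Zscan4 followed by 1 letter and placed on chromosome 7 were taken. This gave 5 genes of the 25965 in the table, namely Zscan4b, Zscan4c, Zscan4d, Zscan4e and Zscan4f. The values come from 9 RNA-seq libraries of polyadenylated RNA from E14, an ESC line of 129/Ola background, grown without feeder cells in serum and LIF, the cytokine that keeps ESCs undifferentiated. The cells received siRNA (control, Dppa2 or Dppa4) at 0 and 48 h and were collected at 96 h (4 d), with 3 libraries (A, B and C) for each siRNA. Their labels read rep3A, rep3B and rep3C in every group, and what the shared rep3 stands for is not given. Dppa2 and Dppa4 are a pair of related DNA-binding proteins of pluripotent cells and early embryos, and the comparison asks whether the Zscan4 genes depend on them. All 3 groups share the line, medium and transfection schedule and differ in the siRNA, which was a pool of several sequences per target, and no knockdown with a single siRNA sequence is analysed here. Per the study's methods and text, the knockdowns were made in E14 cells that carry a pair of reporter transgenes, MERVL::tdTomato and Zscan4c::eGFP, which mark 2-cell-like cells, and the libraries are biological replicates. Whether these come from separate cultures is not given in the sources used here, so p-values measure the spread between these libraries.

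The deposited values are normalized log2 expression per gene and are not divided by transcript length. Low values fall on steps of 1 read, so that reads could be counted from the order of the values, which gave 16.8 M to 39.7 M reads on genes per library. Dppa2 itself fell by 3.49 on the log2 scale with Dppa2 siRNA (adjusted p = 2.13e-05 from limma) and Dppa4 by 0.93 with Dppa4 siRNA (adjusted p = 0.000281), and in every library the targeted transcript matched the label. The 8 markers of ESCs that were examined, among them Pou5f1, Sox2 and Nanog, had log2 values of 5.36 or more in all libraries. Of 5 markers of fibroblast feeders, Twist2 and Col1a2 were at -1.22 or below in all libraries, whereas Col1a1, Pdgfra and Thy1 had group means of 0.43 to 0.73, 0.72 to 1.52 and 2.19 to 2.54 log2 units. In bulk RNA fewer Zscan4-expressing cells and less Zscan4 RNA per cell cannot be told apart.

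The 5 copies span 502 kb of chromosome 7 (GRCm38, 10900740 to 11402741). From the left, Zscan4b (transcript ENSMUST00000168158) lies at chr7:10900740-10905050 on the minus strand and Zscan4c (ENSMUST00000131379) at chr7:11005722-11010547 on the plus strand. They are followed by Zscan4d (ENSMUST00000067210) at chr7:11161374-11166182 and Zscan4e (ENSMUST00000166753) at chr7:11306378-11310682, both on the minus strand, and by Zscan4f (ENSMUST00000145237) at chr7:11397915-11402741 on the plus strand. Each transcript has 4 exons in GENCODE M21, with 505 codons before the stop in Zscan4b and Zscan4e and 506 in the others. RefSeq lists Zscan4e as a pseudogene, whereas GENCODE lists it as protein coding. GENCODE places 4 further copies in the same region, Zscan4a, Zscan4-ps1, Zscan4-ps2 and Zscan4-ps3, which are not rows of the expression table.

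The copies fall into 3 groups by sequence, and this sets which reads can tell them apart. Their coding sequences are 96.6% to 99.7% identical between any 2 copies. Zscan4b and Zscan4e differ at 4 of 1518 aligned coding bases, and Zscan4c and Zscan4f at 6 of 1521. Zscan4d differs from each of the other copies at 35 to 51 bases. The 50 coding bases where the copies differ most, coding bases 716 to 765 in the last of the 4 exons, are shown here 5′ to 3′ on the strand of the gene, with the 7 positions at which any copy differs in capitals. They are the length of 1 read.
Zscan4b: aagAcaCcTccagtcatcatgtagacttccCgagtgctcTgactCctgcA
Zscan4e: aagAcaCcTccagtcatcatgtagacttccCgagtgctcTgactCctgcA
Zscan4c: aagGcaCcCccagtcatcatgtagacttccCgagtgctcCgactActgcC
Zscan4f: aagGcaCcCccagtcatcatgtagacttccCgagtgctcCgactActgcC
Zscan4d: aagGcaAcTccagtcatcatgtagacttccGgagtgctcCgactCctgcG
The stretches lie in GRCm38 at chr7:10901550-10901599, chr7:11307179-11307228, chr7:11009191-11009240, chr7:11401384-11401433 and chr7:11162677-11162726, in the order shown. Even here Zscan4b and Zscan4e are the same letter for letter, as are Zscan4c and Zscan4f, while any 2 copies from different groups differ at 5 bases. A read from this stretch could therefore separate the groups but not the copies of a pair.

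To see how far reads of this length could be assigned, every window of 50 bases of each transcript was looked up in all annotated mouse transcripts, on both strands. Zscan4d is the most distinct copy, with 50.4% of its windows found in no other gene. The share was 14.5% for Zscan4c, 9.38% for Zscan4e, 7.51% for Zscan4b and 4.66% for Zscan4f. Zscan4e shared 87.1% of its windows with Zscan4b, and Zscan4f shared 81.7% with Zscan4c. The copies that are not rows of the table matter as well, since 90.3% of the Zscan4f windows and 82.6% of the Zscan4c windows also occur in at least one of them. Between 3.01% and 9.38% of the windows of a copy occur in Gm17737 or Gm45551, pseudogenes annotated on the same chromosome. How reads that map to several places were treated is not given in the sources used here, and the reads of 129/Ola cells were mapped to the reference genome, an effect that was not tested. Values for single copies are thus uncertain, and the sum over the copies is given beside them.

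**Figure D1:**
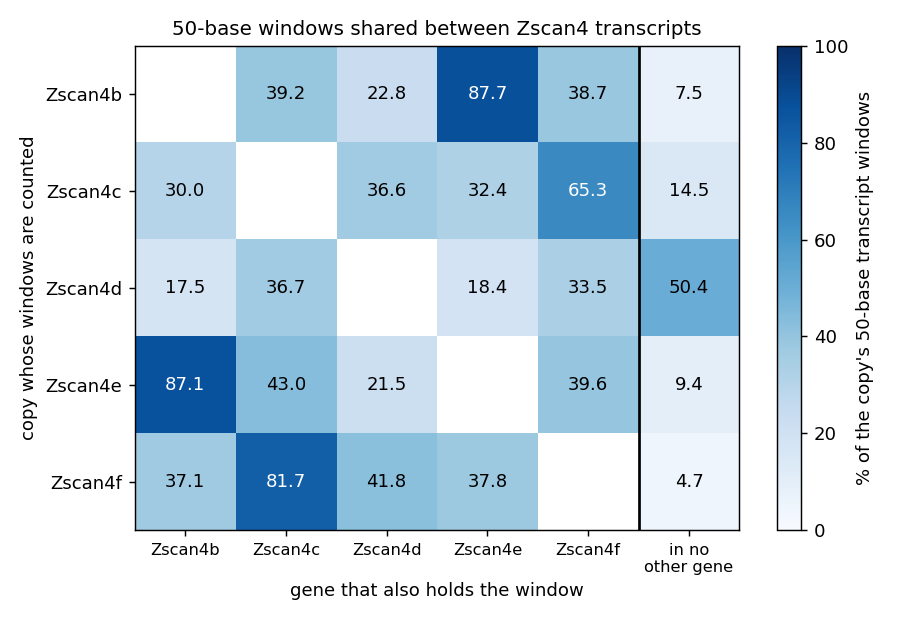
Share of the 50-base windows of each Zscan4 transcript (rows) that also occur in another copy (columns, in percent), with the share found in no other annotated gene in the last column. Zscan4b and Zscan4e share 87.1% to 87.7% of their windows, Zscan4f shares 81.7% with Zscan4c, and Zscan4d has the highest share of its own, 50.4%.

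The sequence upstream of the copies is alike as well. RefSeq promoters (GRCm38.p6) were at hand for 4 of the 5 copies, all but Zscan4e. The 216 bases that are aligned without a gap and lie before the annotated start of all 4 are shown 5′ to 3′, with the 12 positions that differ between copies in capitals, to show how alike the sequence just before the transcripts is.
Zscan4b: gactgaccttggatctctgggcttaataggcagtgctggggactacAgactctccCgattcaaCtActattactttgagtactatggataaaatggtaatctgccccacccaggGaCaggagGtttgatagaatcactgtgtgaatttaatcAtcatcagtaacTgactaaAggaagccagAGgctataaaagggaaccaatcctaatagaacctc
Zscan4c: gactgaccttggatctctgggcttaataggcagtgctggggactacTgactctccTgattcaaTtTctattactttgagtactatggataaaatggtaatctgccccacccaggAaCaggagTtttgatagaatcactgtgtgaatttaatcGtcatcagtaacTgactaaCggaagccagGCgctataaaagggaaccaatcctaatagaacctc
Zscan4d: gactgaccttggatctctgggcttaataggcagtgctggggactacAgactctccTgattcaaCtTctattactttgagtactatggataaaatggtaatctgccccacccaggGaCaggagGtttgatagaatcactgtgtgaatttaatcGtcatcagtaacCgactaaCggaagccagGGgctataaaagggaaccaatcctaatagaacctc
Zscan4f: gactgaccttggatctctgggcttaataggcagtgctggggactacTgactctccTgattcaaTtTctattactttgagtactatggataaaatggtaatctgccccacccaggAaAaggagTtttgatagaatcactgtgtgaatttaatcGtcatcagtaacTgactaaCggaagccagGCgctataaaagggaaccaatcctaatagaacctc
These are chr7:10905051-10905266 (minus), chr7:11005506-11005721 (plus), chr7:11166183-11166398 (minus) and chr7:11397699-11397914 (plus). Zscan4c and Zscan4f differ at 1 of the 216 bases, and the other pairs at 6 to 11. The motif TATAAA, searched on both strands, is in 4 of the 4 promoters and in 13.6% of all 32851 promoters of the same 300 bases. The longer TATAAAAG, which contains it, is also in all 4 and in 1.70% of all promoters. It begins 31 bases before the RefSeq start in Zscan4b and Zscan4f, 54 in Zscan4c and 65 in Zscan4d. The 216 bases adjoin the transcript starts of the expression table, and counted from those it begins 31 bases before the start in all 4. The unlike distances thus come from the RefSeq starts. CG dinucleotides are few, with 1 in the 300 bases of Zscan4b, 4 in those of Zscan4c and 3 in those of Zscan4d and Zscan4f, against a median of 7 over all promoters. Between 14.1% (Zscan4b) and 38.0% (Zscan4c) of promoters have as few.

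In control siRNA cells all 5 copies were expressed, at unequal levels. Zscan4d was the highest, with log2 expression of 5.05, 4.81 and 4.63 in libraries A, B and C, which rests on 1120, 1558 and 687 reads. Zscan4c had 3.85, 4.00 and 4.09 (488, 894 and 462 reads). These 2 copies varied little between the control libraries. The other copies were lower and less even. Zscan4f had 2.79, 2.38 and 1.53 (233, 293 and 72 reads), and Zscan4e had 2.82, 2.61 and 0.82 (237, 346 and 45 reads). Zscan4b, the lowest copy, had 1.43, 1.73 and 0.14 (87, 186 and 29 reads). For Zscan4b, Zscan4e and Zscan4f the C library was thus the lowest of the 3.

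Divided by transcript length, the order of the copies was Zscan4d, Zscan4c, Zscan4f, Zscan4e and Zscan4b, with log2 expression per kilobase of 3.64 ± 0.21, 2.79 ± 0.12, 1.36 ± 0.64, 1.30 ± 1.10 and 0.29 ± 0.84 (SD, n = 3). Within each library Zscan4d was above Zscan4c, by 0.85 ± 0.33 on the log2 scale (SD, n = 3). Zscan4c was above Zscan4f by 1.43 ± 0.76 and Zscan4e above Zscan4b by 1.01 ± 0.37, each in 3 of 3 libraries. Zscan4f and Zscan4e did not differ beyond their spread (0.06 ± 0.50), and their order was not the same in all libraries. For the 3 steps seen in every library the exact sign-flip test over libraries (two-sided, 4 neighbouring pairs) gave p = 0.25, which is the smallest that 3 libraries allow, and p = 0.333 after Benjamini-Hochberg adjustment. For Zscan4f against Zscan4e the exact p was 1. The order also depends on the length by which the values are divided. Divided instead by the windows found in no other gene, an alternative chosen after the data were seen, Zscan4d was below Zscan4c by 0.95 ± 0.33 (in 3 of 3 libraries), and Zscan4f had the highest mean, 5.83, of the 5 copies. Both scales use the same deposited values, and another way to count shared reads was not tested.

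The division of the Zscan4 reads among the copies was not the same in the 3 control libraries. Of the 2165, 3277 and 1295 reads on the 5 copies in A, B and C, Zscan4d took 51.7%, 47.5% and 53.1% and Zscan4c 22.5%, 27.3% and 35.7%. Zscan4e took 10.9% (Wilson 95% interval 9.70% to 12.3%) in A and 10.6% (9.55% to 11.7%) in B, but 3.47% (2.61% to 4.62%) in C. Zscan4f took 10.8%, 8.94% and 5.56%, and Zscan4b 4.02%, 5.68% and 2.24%. The intervals of library C lie apart from those of both other libraries for Zscan4c, Zscan4e, Zscan4f and Zscan4b, with Zscan4c higher and the other copies lower. For Zscan4c those of A (20.8% to 24.3%) and B (25.8% to 28.8%) also lie apart from each other. So, narrowly, do those of Zscan4b, which reach up to 4.930% in A and begin at 4.934% in B. For Zscan4d it is library B (45.8% to 49.3%) that lies apart, below A (49.6% to 53.8%) and C (50.3% to 55.8%). Intervals and floors cover counting error only, since reads were not collapsed to molecules by identifiers.

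**Figure D2:**
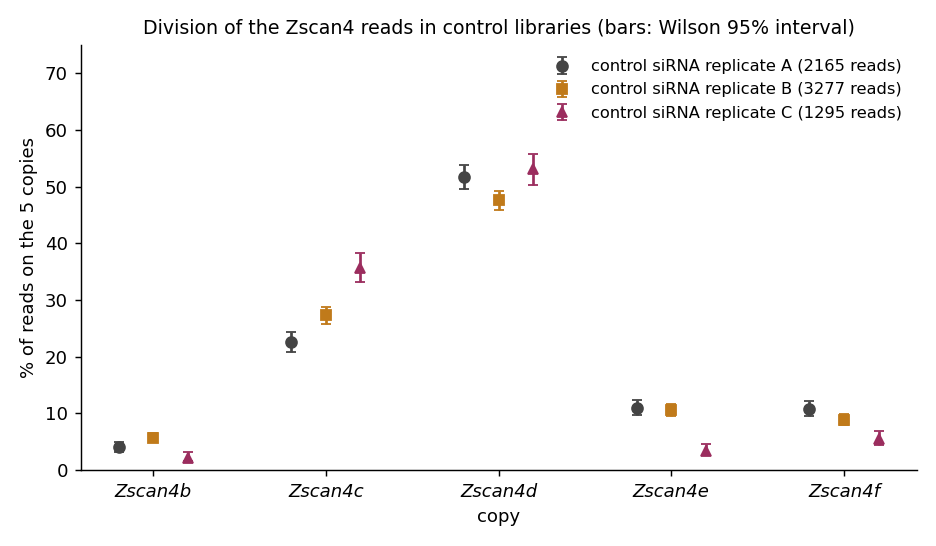
Share of the reads on the 5 Zscan4 copies that fell on each copy (percent) in the 3 control siRNA libraries, with Wilson 95% intervals. Zscan4d took between 47.5% and 53.1% in each library, while in library C Zscan4e fell to 3.47% and Zscan4c reached 35.7%.

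Library C minus the mean of A and B gave a log2 difference of -1.90 for Zscan4e, -1.44 for Zscan4b, -1.05 for Zscan4f, -0.30 for Zscan4d and 0.16 for Zscan4c. Zscan4e, Zscan4b and Zscan4f, which differ most, have the smallest shares of windows of their own and also the fewest reads. Among them the order did not follow that share, which is 9.38% for Zscan4e, 7.51% for Zscan4b and 4.66% for Zscan4f. Library C was the shallowest control library, at 20.7 M reads, and 39.3% of all other tested genes were lowest there, with a median difference of 0.03. Among tested genes of like level, 2.46% had a range over the control libraries as large as that of Zscan4e, 8.06% as large as Zscan4b, 10.2% as large as Zscan4f, 55.4% as large as Zscan4d and 82.7% as large as Zscan4c. The part of depth and of read assignment in these differences was not tested.

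With Dppa2 siRNA nearly all Zscan4 RNA was gone. Summed over the copies, 3 to 15 reads per library remained, against 1295 to 3277 in control siRNA libraries. Adjusted for library totals, the 30 reads of the 3 libraries came to 0.596% of the amount in control siRNA cells (0.402% to 0.851%, exact 95% interval). With Dppa4 siRNA 11 to 18 reads per library remained, 44 in all, or 0.686% (0.498% to 0.922%). Single libraries ran from 0.193% to 1.15% with Dppa2 siRNA and from 0.632% to 0.795% with Dppa4 siRNA. The intervals pool the reads and leave out this spread between libraries. On the linear scale of the deposited values the sum was 1.11% ± 0.59 of control with Dppa2 siRNA and 1.07% ± 0.16 with Dppa4 siRNA (SD, n = 3). This is higher than by reads. A gene with 0 reads still carries a small value on that scale, but why the 2 measures differ was not tested. Both groups lie far below the lowest control library, at 83.6% of the control mean. The 2 knockdowns are compared with the same 3 control libraries, so that their differences from control are not independent.

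Copy by copy, Zscan4d, the most distinct transcript, had log2 expression of -1.40, -3.21 and -1.73 with Dppa2 siRNA (10, 2 and 5 reads) and -1.47, -3.80 and -2.38 with Dppa4 siRNA (11, 2 and 4 reads). Zscan4c had -3.59, -3.84 and -1.13 (2, 1 and 8 reads) and -2.38, -3.37 and -2.07 (6, 3 and 5 reads). Both copies kept at least 1 read in each of the 6 knockdown libraries, and both were far below their control values. Zscan4f had 0 reads in all 3 libraries with Dppa2 siRNA and 1, 1 and 0 reads with Dppa4 siRNA. Zscan4e likewise had 0 reads in all 3 with Dppa2 siRNA and 0, 3 and 2 with Dppa4 siRNA. Against a floor of 3 reads per library, Zscan4e was at least 46.7-fold lower and Zscan4f at least 46.2-fold lower with Dppa2 siRNA than with control siRNA. Zscan4b had 0, 0 and 2 reads with Dppa2 siRNA and 0, 6 and 0 with Dppa4 siRNA, its highest value in a knockdown, -2.39, being below its lowest in a control library, 0.14. No copy overlapped between control and knockdown libraries, which was also so, in this direction, for 5.75% of all 14601 tested genes.

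**Figure D3:**
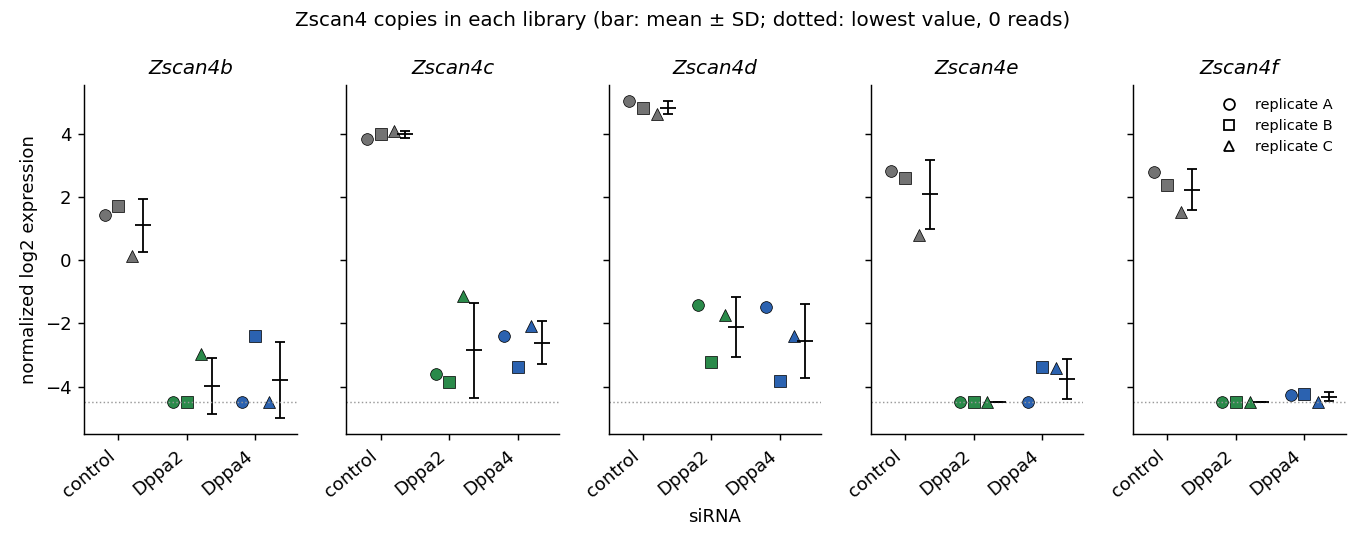
Normalized log2 expression of the 5 Zscan4 copies in each of the 9 libraries, by siRNA (control, Dppa2, Dppa4), with the mean ± SD (n = 3) beside the points and the lowest value, 0 reads, as a dotted line. All control libraries lie at 0.14 or above and all knockdown libraries at -1.13 or below, with Zscan4e and Zscan4f at the lowest value in every Dppa2 siRNA library.

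Differences were fitted with limma to all 9 libraries, over the 14601 genes that exceeded -2 on the log2 scale in 3 or more libraries. A gene was called where its Benjamini-Hochberg adjusted p was below 0.05 and where it also passed an intensity difference filter, which sets a gene's difference against those of the 1% of genes nearest in mean expression. With Dppa2 siRNA 5 of 5 copies were called lower, and 1.59% of all tested genes were. With Dppa4 siRNA 5 of 5 were called lower as well, against 1.58% of all tested genes. Each copy reached the set of tested genes through its 3 control libraries, and Zscan4b, Zscan4e and Zscan4f exceeded -2 in no knockdown library, so these counts are a description and lend no support.

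The fitted difference was smallest for Zscan4b, the lowest copy, in both knockdowns. With Dppa2 siRNA the log2 difference was -6.94 for Zscan4d (SE 0.61, adjusted p = 0.000356 from limma), -6.83 for Zscan4c (SE 0.66, 0.000614) and -6.72 for Zscan4f (SE 0.39, 6.05e-05). It was -6.57 for Zscan4e (SE 0.57, 0.000329) and -5.07 for Zscan4b (SE 0.73, 0.00607). With Dppa4 siRNA the log2 differences were -7.38 for Zscan4d (adjusted p = 0.000281 from limma), -6.59 for Zscan4c (0.000772), -6.56 for Zscan4f (6.44e-05), -5.84 for Zscan4e (0.000666) and -4.89 for Zscan4b (0.00775). Since several of the means rest on 0 reads, these fitted values depend on where the scale ends and are no bounds. The same holds for their SE and p, which rest partly on libraries at the lowest value. As with the counts, these p-values are a description and lend no support. Ordered from the most negative, the copies stood with Dppa2 siRNA at places 9 to 46 of the 14601 differences, and at 5 to 47 with Dppa4 siRNA. By the reads left the copies could not be ordered in this way. With Dppa2 siRNA 0.886% of the control reads were left for Zscan4b (exact 95% interval 0.107% to 3.23%), 0.798% for Zscan4c (0.398% to 1.43%) and 0.676% for Zscan4d (0.393% to 1.08%). With Dppa4 siRNA the share ran from 0.351% (0.0425% to 1.28%) for Zscan4f to 2.09% (0.760% to 4.60%) for Zscan4b, whose 6 reads all came from library B.

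The 2 knockdowns did not separate in their Zscan4 levels. The targeted transcripts were lowered to different depths, but RNA does not give the amount of protein left. Per the study, each siRNA lowered both proteins, and Dppa4 siRNA lowered Dppa2 protein with no change in Dppa2 mRNA. Of the 5 copies 0 were called different between Dppa4 and Dppa2 siRNA by limma with the intensity difference filter, and 0 had an unadjusted p below 0.05. Over all tested genes 3 (0.0205%) were called by both criteria and by limma alone, and 987 had such an unadjusted p. Dppa4 siRNA minus Dppa2 siRNA, the log2 difference was 0.18 for Zscan4b (95% interval -1.46 to 1.82), 0.25 for Zscan4c (-1.24 to 1.74), -0.44 for Zscan4d (-1.82 to 0.94), 0.73 for Zscan4e (-0.56 to 2.01) and 0.16 for Zscan4f (-0.73 to 1.04). Zscan4b, Zscan4e and Zscan4f had knockdown libraries with 0 reads, so their intervals depend on where the scale ends and are no bounds. With so few reads left, the interval of Zscan4c leaves room for a difference of 1 log2 unit in either direction, and the data do not show that the siRNAs acted alike.

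The genes around the cluster were nearly all silent, and the single one that was tested did not pass. Of the 12 genes with a midpoint within 500 kb of the cluster, 10 were at the lowest value in all 9 libraries, among them 9 vomeronasal receptor genes (Vmn1r) and Nlrp4b. Gm6900 was not above -1.49 in any library. Zik1, a zinc finger gene at -672 kb from the middle of Zscan4d, was the only neighbour tested. It had log2 expression of 3.65, 2.67 and 2.94 with control siRNA and between 2.69 and 3.34 in the 6 knockdown libraries. These groups overlap, and neither difference passed the test (limma, -0.17 ± 0.27, adjusted p = 0.902, with Dppa2 siRNA and -0.26 ± 0.27, adjusted p = 0.704, with Dppa4 siRNA, each ± SE).

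**Figure D4:**
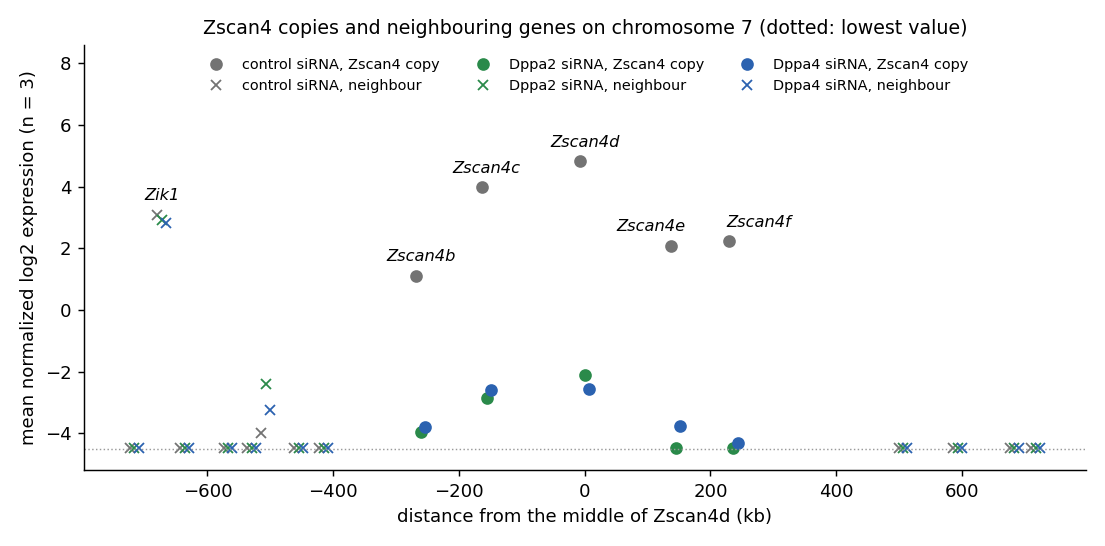
Mean normalized log2 expression (n = 3) of the Zscan4 copies (circles) and the 12 neighbouring genes (crosses) against the distance from the middle of Zscan4d in kb, by siRNA. The copies drop from between 1.10 and 4.83 with control siRNA to -2.11 or below in both knockdowns, Zik1 stays between 2.83 and 3.09, and all other neighbours but Gm6900 lie on the dotted line of the lowest value.

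Other SCAN zinc finger genes were then set beside the copies. Of the 10 genes named Zscan with another number, 9 were tested. With Dppa2 siRNA 0 of 9 were called by both criteria, 1 by limma alone (3.44% of all tested genes) and 2 at an unadjusted p below 0.05 (15.7% of all tested genes), and with Dppa4 siRNA 1 was called lower (1.58% of all tested genes). That gene is Zscan5b in both cases, and the median difference of the 9 was -0.02 and 0.03, against 0.02 and 0.03 over all tested genes. Zscan5b had log2 expression of 1.41, 1.39 and 1.95 with control siRNA, 0.08, -0.24 and -0.31 with Dppa2 siRNA and 0.19, 0.17 and -0.62 with Dppa4 siRNA, so that it was lower in each knockdown library than in any control library. By limma its differences were -1.74 ± 0.27 (adjusted p = 0.00919) and -1.67 ± 0.27 (adjusted p = 0.0122, each ± SE), against -7.38 to -4.89 for the Zscan4 copies. Zscan10, a SCAN factor of pluripotent cells, did not pass the test (0.12 and 0.30, adjusted p = 0.726 and 0.170 from limma).

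A further list held 22 genes that are tied to Zscan4 in ESCs by their roles, in telomere upkeep, in meiosis-like recombination, in DNA methylation and chromatin repression, or by expression alongside Zscan4. Of these 21 were tested and 2 were called lower in each knockdown, Sp110 and Arg2, against 1.59% and 1.58% of all tested genes, with medians over the list of -0.01 and 0.03. Sp110 exceeded -2 in no knockdown library and so was tested through its control libraries alone. Sp110, a nuclear body gene, had 2.12, 2.03 and 2.97 with control siRNA, -3.59, -4.48 and -2.95 with Dppa2 siRNA and -4.49, -3.80 and -4.49 with Dppa4 siRNA. Arg2, an arginase of mitochondria, had 2.62, 2.76 and 3.40 with control siRNA and -2.65 to -1.79 in the 6 knockdown libraries. In both genes the knockdown libraries lie far below all control libraries. The remaining genes, which act on telomeres, recombination or chromatin, gave no call. The telomere-binding factors Terf1 and Terf2 had differences of 0.02 and 0.16 with Dppa2 siRNA and -0.12 and 0.10 with Dppa4 siRNA, Tert, the telomerase subunit, 0.40 and 0.70 (SE 0.48), and Rif1, a telomere and replication factor, -0.46 and -0.41 (SE 0.54). The control libraries of these last genes were uneven, with 2.55, 2.26 and 0.50 for Tert and 8.18, 7.18 and 6.18 for Rif1. For the meiotic genes Dmc1, a recombinase, and Smc1b, a cohesin subunit, the differences were 0.32 and 0.35, and -0.01 and -0.30. Spo11, which cuts DNA in meiosis, had at most 1 read in any library and was not tested. The DNA methyltransferase Dnmt1 and its partner Uhrf1 differed by -0.05 and -0.02 with Dppa2 siRNA and by 0.03 and 0.09 with Dppa4 siRNA.

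Other genes of the 2-cell stage fell as well. Of a list of 37 genes linked to that stage, 28 were in the table and 19 were tested. With Dppa2 siRNA 17 of 19 were called lower and with Dppa4 siRNA 16 of 19, against 1.59% and 1.58% of all tested genes. The median log2 difference was -5.97 in both, against -6.72 and -6.56 for the Zscan4 copies. The list was chosen with earlier results of these data known, so these counts are a description. Of the 19, 15 were above -2 in no knockdown library and so reached the test through control libraries alone, as the Zscan4 copies did. Tmem92, whose transcript marks the 2-cell-like state, had 3.20, 3.55 and 3.84 with control siRNA and between -3.40 and -1.72 in the knockdowns. Tcstv3 had 1.39, 0.97 and 2.66 with control siRNA and 0 to 2 reads in each knockdown library. Trim43c and Dnmt3l were not called in either knockdown. Trim43c had log2 differences of -2.48 with Dppa2 siRNA and -3.01 with Dppa4 siRNA (adjusted p = 0.0880 and 0.0433 from limma). Dnmt3l went the other way, by 0.17 and 0.36. Tcstv1 was called in the knockdown of Dppa2 only (adjusted p = 0.00692 and 0.00713 from limma, so that only the intensity filter separated the 2).

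**Figure D5:**
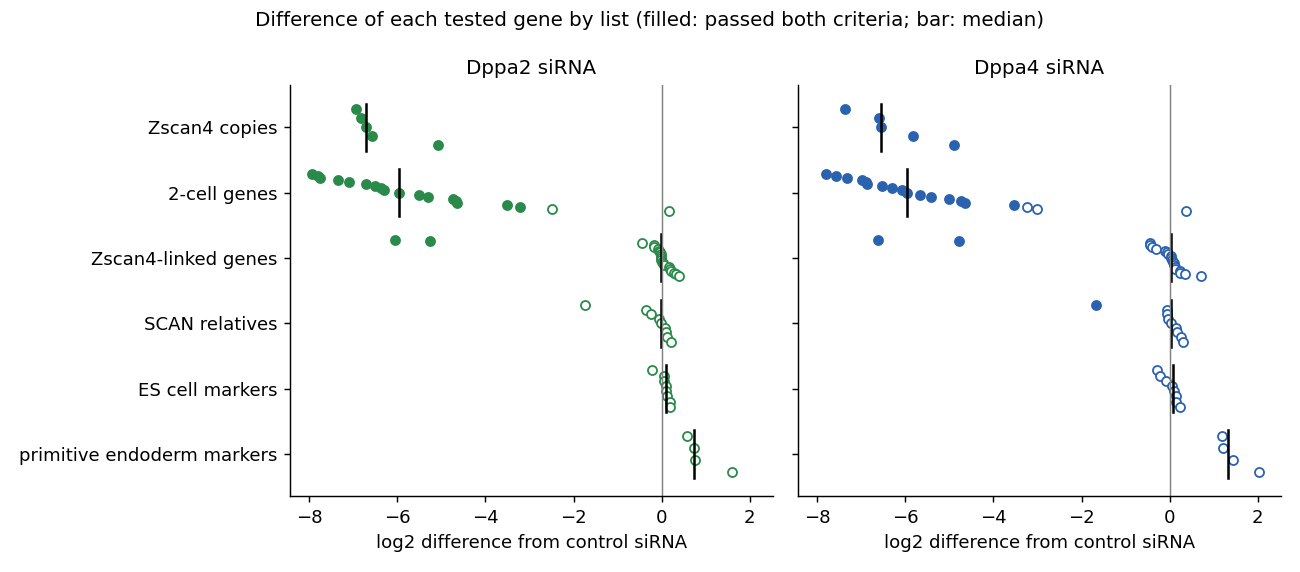
Log2 difference from control siRNA of each tested gene in 6 lists (rows), with Dppa2 siRNA on the left and Dppa4 siRNA on the right; filled points passed both criteria and the bar is the median of the list. The Zscan4 copies (median -6.72 and -6.56) and the 2-cell genes (-5.97) lie far to the left, and of the Zscan4-linked genes 2 of 21 do.

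Likeness over the 9 libraries was described by Pearson's r between the log2 value of a gene and the mean log2 value of the 5 copies. Of 14596 other tested genes, 17 had r above 0.99 and 132 above 0.95. The 10 highest were Zfp352 (0.996), Tdpoz4 (0.995), Dcc (0.995), Abcb5 (0.995), Dub2a (0.994), AC164627.1 (0.994), AW822073 (0.994), Gm13109 (0.993), B020004J07Rik (0.993) and C86695 (0.993). All 10 had means of -4.06 or below in both knockdowns, and the 9 points fall into 3 control and 6 knockdown libraries, so that r mostly describes that contrast. Zfp352, a zinc finger gene of the 2-cell embryo, had 87, 147 and 49 reads in the control libraries and 0 or 1 in each knockdown library. Like Zscan4b, Zscan4e and Zscan4f it was lowest of the control libraries in C, with 1.43, 1.38 and 0.94, as were Tdpoz4 (0.48, 0.43 and -0.42) and Dub2a (1.16, 0.70 and -0.03). These genes were picked by r over the same libraries, so that a like order of the control libraries is partly built in. Of the 19 tested 2-cell genes 9 (47.4%) were lowest in C, against 39.3% of the tested genes other than the copies. Among the copies themselves r ran from 0.898 for Zscan4b and Zscan4d to 0.987 for Zscan4e and Zscan4f, and it was 0.963 for the near-identical Zscan4b and Zscan4e. The copies share their library, depth and part of their reads, and no test was made of these values.

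Markers of other cell types were examined in the same libraries. Gata6, Gata4, Sox17 and Sox7 had a summed linear value of 2.26 to 4.65 with control siRNA, 4.81 to 7.09 with that of Dppa2 and 8.62 to 9.38 with that of Dppa4, and none was at 0 throughout. Of the 4 genes 0 were called by both criteria. By limma alone 0 passed with Dppa2 siRNA, where 3 had an unadjusted p below 0.05 (15.7% of all tested genes did). With Dppa4 siRNA Gata6 and Sox17 passed limma (1.44 and 1.20, adjusted p = 0.0132 and 0.0348), as did 3.44% of all tested genes. There 4 had an unadjusted p below 0.05 (18% of all tested genes did). The part of these markers in the Zscan4 result was not tested. The 8 ESC markers had a summed value of 2707 to 3506 in control and 3120 to 3620 in knockdown libraries, and these ranges overlap. The 5 fibroblast markers summed to 8.36 to 9.21 with control siRNA, 7.51 to 8.69 with that of Dppa2 and 9.68 to 10.96 with that of Dppa4. For the 3 neural markers the ranges were 16.0 to 20.3, 12.1 to 14.6 and 14.2 to 15.7, for the 3 of mesoderm 3.10 to 4.19, 2.93 to 3.39 and 3.84 to 4.17, and for the 3 of trophoblast 1.04 to 2.09, 1.07 to 1.53 and 1.41 to 1.63. Of the tested genes in these 4 lists 0 were called by both criteria or by limma alone in either knockdown. At an unadjusted p below 0.05 stood 1 neural, 1 mesoderm and 1 trophoblast gene with Dppa2 siRNA, and 1 fibroblast and 1 neural gene with Dppa4 siRNA, where 18% of all tested genes did.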

How the data were processed

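Per the labels and the methods of the study, the authors trimmed single-end reads of 50 bases with Trim Galore (0.4.5 per the labels, another version per the methods), mapped them to GRCm38 with HISAT2 2.0.5 and counted them over genes in SeqMonk, and they deposited 1 table of normalized log2 values whose library distributions had been matched. The table holds no counts, so limma 3.58.1 (R 4.3.3) took the place of the count test that the study names beside the intensity difference filter. The fit used all 9 libraries with a mean-dependent variance prior, on 14601 genes above -2 in at least 3 libraries, and was tested on simulated data. The rule for genes to name took every Zscan4 copy, the neighbours with reads, the 10 genes of highest r and 2 to 6 genes of each list. Members and lists were chosen with earlier results of these data known. Reads were inferred up to 300 from the order of distinct values and above that from a line fitted to the values of 300 to 700 reads. The share of reads left carries an exact interval, with the knockdown reads taken as a binomial share of control plus knockdown reads and scaled by library totals. Transcripts were aligned with MAFFT 7.526, using GENCODE M21 sequences and RefSeq promoters of GRCm38.p6. Alternatives left out each library, changed the filter, prior, scaling, copy or divisor, and added the replicate letter.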

Additional observations from a re-analysis of the deposited data

How the results depend on the processing

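Across 17 alternatives per copy, all 85 log2 differences of the copies from control siRNA kept their direction and stayed below an adjusted p of 0.05 (limma) in either knockdown, with a range of -7.70 to -3.10 for Dppa2 siRNA and of -7.92 to -3.10 for Dppa4 siRNA. A change of filter or prior, the added replicate letter, or leaving out libraries outside the comparison cannot move the difference itself. In those fits only the p could change. Each copy reached the test through its control libraries, so these p-values and the calls below are a description and lend no support. Testing only genes above a log2 value of 0 in at least 3 libraries left 3 of 5 copies called lower with Dppa2 siRNA and 2 of 5 with Dppa4 siRNA. By limma those lost still had adjusted p of at most 0.00738 and 0.00906. They missed the intensity difference filter, whose value was 0.134 for Zscan4b and 0.0528 for Zscan4e with Dppa2 siRNA, and 0.156, 0.0903 and 0.0571 for Zscan4b, Zscan4e and Zscan4f with Dppa4 siRNA. With that filter's p adjusted, 4 of 5 were called with Dppa4 siRNA, all but Zscan4b. In the 9 fits that each left out 1 library, 5 of 5 copies were called in both knockdowns and 0 between them. The summed level with Dppa4 siRNA was 1.41% of control without Zscan4d. Between Dppa4 and Dppa2 siRNA the direction was not stable, and no alternative gave a copy an adjusted p below 0.05. For Zscan4c the difference was -0.29 with values below -2 raised to -2, and leaving out single libraries gave -0.52 to 0.69 for Zscan4b, -0.25 to 1.11 for Zscan4c and -0.98 to 0.19 for Zscan4d. Among the copies, Zscan4d minus Zscan4c was -0.95 and Zscan4c minus Zscan4f -0.21 per kilobase of windows found in no other gene, and Zscan4f minus Zscan4e ran from -0.22 to 0.25 as single control libraries were left out, being below 0 without library C. The causes were not tested.

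Over all tested genes the calls, 293 with Dppa2 siRNA and 292 with Dppa4 siRNA, were 457 with Dppa2 siRNA without a filter, 190 with Dppa2 siRNA with the filter at 0, 502 and 502 by limma alone, 95 and 68 with the intensity filter adjusted, and 185 with Dppa2 siRNA from the 2 groups alone. They were 191 without Dppa2 siRNA library C, and 156 and 173 without Dppa4 siRNA libraries B and A. Between the knockdowns there were 3 calls, and 1 to 3 under the alternatives.

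The letters A, B and C were given to all 3 groups, and the replicate block gave 5 of 5 copies an adjusted p below 0.05 in both knockdowns (limma, 0.00128 to 0.0281 for Dppa2 siRNA, 0.00125 to 0.0338 for Dppa4 siRNA) and 0 of 5 between them. Over all genes the block gave 197 and 176 calls. For the copies the p-values of the block are a description as well. Deviations of libraries of the same letter correlated with r from -0.585 to 0.367, above 0.1 in 2 of 9 pairs, so the letters were not taken as pairing.

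With 3 to 18 Zscan4 reads in a knockdown library, the intervals between the knockdowns were wide. They ran from -1.24 to 1.74 log2 units for Zscan4c and from -1.82 to 0.94 for Zscan4d. Zscan4b, Zscan4e and Zscan4f had knockdown libraries with 0 reads, so their intervals depend on where the scale ends and are no bounds.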
